A study of Mus musculus with 8 samples.

Results

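The genes studied here encode the glycosyltransferases that build mucin-type O-glycans, the branches and ends of N-glycans, and the sugar chains of glycolipids. Members were the protein-coding genes with a symbol that starts with Galnt, B3gal, B4gal, B3gnt, Gcnt, Fut, St3gal, St6gal, St8sia, Mgat or C1galt, where Galnt, Gcnt and Fut had to be followed by a digit and Mgat by a digit from 1 to 5. The rule reads gene symbols only, and it was set with earlier results of these data known. Of the 55414 Ensembl gene IDs in the count table, this took 89 genes. After the default low-count filter of edgeR, which asked for a CPM (counts scaled to library size, per 1e6 counts) of about 0.691 on total counts, without TMM factors, in at least 4 libraries, 55 of them were among the 11929 genes tested, and 34 were not.

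Paneth cells, the granulated secretory cells at the bottom of the crypts, were purified by FACS from the small intestine of mice (C57BL/6J, per the study's methods), and their RNA was sequenced from stranded poly(A) libraries. In the TG group were 4 libraries of mice with the genotype DT TG, whose Paneth cells express diphtheria toxin, a protein that stops translation in the cell that holds it. As control served 4 libraries of wild type (WT) mice without the transgene. The age of the mice, the promoter behind the toxin and the time since depletion were not given in the sources used here. Per the study's methods, each library holds the sorted cells of 1 mouse. The same sources do not say whether the sorted TG cells still made the toxin.

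Mucin-type O-glycosylation starts in the Golgi, where polypeptide GalNAc transferases add the first sugar to serine or threonine. Galactose or GlcNAc then forms a core, further transferases lengthen and branch it, and fucose or sialic acid caps the chain. N-glycans arrive from the endoplasmic reticulum as a ready block that is trimmed, and Mgat enzymes then set the number of branches. In the intestine such glycans cover Muc2 and the epithelial surface, where they shape the contact with microbes.

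Total counts were 13107397 to 16218434 per library. The 9 Paneth markers summed to 374954 to 461828 CPM in TG and 354859 to 535363 in WT, so the labelled cell type was met in both groups, while 3 of the 9 (Mmp7, Ang4 and Mptx2) were lower in TG by edgeR. Summed CPM of 11 enterocyte markers was 259 to 371 in TG and 131 to 215 in WT, and the 6 immune markers summed to 60.5 to 195 in TG and 281 to 471 in WT (exact two-sided permutation test, p = 0.0286 for each, the smallest possible, and 0.1 when adjusted over 7 lists). Of the 11 enterocyte markers, 6 passed the edgeR test, all higher in TG, and no enterocyte marker was at 0. Of the immune markers none passed it, Cd74 made up most of the sum, and the defining markers Cd3e and Cd79a had 2 counts each over all 8 libraries. Goblet markers summed to 8693 to 12000.5 CPM in TG and 10897 to 12669 in WT, and these ranges overlapped (p = 0.0571 by the same exact test, 0.133 adjusted), as did those of the stem, enteroendocrine and tuft cell markers. The part of these differences in the results below was not tested. In bulk RNA, fewer cells of a type and less RNA per cell cannot be told apart. The 4 Y-linked genes looked at had 0 counts in replicates 1 and 2 and 897 to 1564 counts in replicates 3 and 4, in TG and WT alike, so that this split was balanced between the groups.

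Which transferases these cells carried was read from CPM per kilobase of exon, the only scale on which genes were ranked against each other. Galnt7, which prefers peptides that already hold a GalNAc, had the highest mean over all 8 libraries at 56.8 CPM per kb, and C1galt1c1, the chaperone of the core 1 galactosyltransferase, had the same value at this precision. Galnt12 followed with 51.6, Galnt4 with 40.1, the core 2 and core 4 enzyme Gcnt3 with 39.2, and Fut4, which adds fucose to GlcNAc, with 36.9. B4galnt2, Galnt6, Mgat2 and Mgat4b completed the 10 highest, at 36.0, 35.6, 31.7 and 30.04 CPM per kb. In WT alone C1galt1c1 stood first at 65.2 CPM per kb and Galnt7 second at 59.1, and in TG Galnt7 was first at 54.6 and Galnt12 second at 52.8. Sialyltransferases were led by St3gal1, which caps core 1, at 29.97 CPM per kb. The lowest tested members, Mgat4c, B3galt5 and Gcnt2, were at 0.133, 0.155 and 0.173 CPM per kb. Exon lengths were unions over all annotated transcripts, which makes these levels low for genes with many isoforms. Galnt4 lies inside the locus of Poc1b, and its counts may hold reads of that gene.

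**Figure D1:**
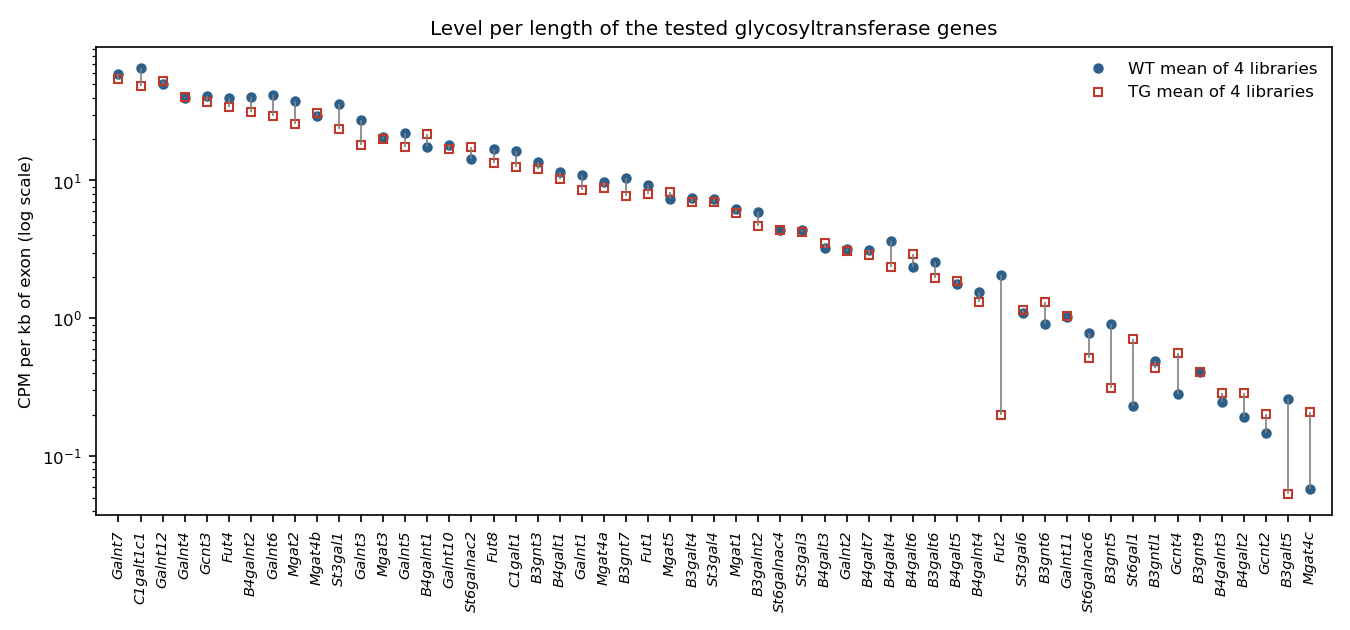
Mean level of each of the 55 tested glycosyltransferase genes in CPM per kb of exon (log scale), in WT (filled circles) and TG (open squares), 4 libraries each, ordered by the mean over all 8 libraries. Levels span Galnt7 at 56.8 to Mgat4c at 0.133 CPM per kb, and the widest gap between groups on this log scale is that of Fut2 (2.07 in WT, 0.200 in TG).

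TG and WT were compared to ask what toxin expression in Paneth cells changes in the cells that can still be sorted, here in their glycosylation genes. At an edgeR adjusted p below 0.05, 16 of the 55 tested members (29.1%) were lower in TG, where 9.65% of all tested genes were. One of the 16, B3galt5, passed the low-count filter through WT alone and had to differ, and another, Fut2, reached the filter level in 2 TG and 4 WT libraries and so needed WT to pass. Higher in TG were 4 members (7.27%), against 8.26% of all tested genes, a share near the background, and 1 of the 4, Mgat4c, needed its TG libraries to pass the filter. For 15 members (27.3%) every TG library had a lower CPM than every WT library, against 12.0% of all tested genes. For 5 members (9.09%) every TG library had a higher CPM than every WT library, as had 1193 of the 11929 tested genes (10%), so that this share too was near the background. Of the smaller roles, fucosyltransferases had 2 of 4 tested members lower, core enzymes 2 lower and 1 higher of 5, and N-glycan branching 1 lower and 1 higher of 7, counts too small to set apart from those shares. The median log2 fold change, TG over WT, was -0.11 over the tested members and 0.01 over all tested genes. Among the 32 tested members with a mean of at least 20 CPM, 12 were lower and 1 was higher, with log2 fold changes from -0.62 to 0.31 among those called. Called members of high level thus changed by modest amounts, and the largest called changes were those of members of low level. Members of low level had larger SEs (0.85 for Fut2, against 0.09 for Galnt3), so that only large changes could be called there. No link between level and change can be read from this. Scaling by total counts moved the median of all genes to 0.12 and left 6 members lower (B3galt5, B3gnt5, Fut2, Galnt3, Mgat2 and St3gal1) and 4 higher, where 2.20% of all tested genes were lower and 6.60% higher. Without TG replicate 1 or TG replicate 2, 10 members were lower in each case, against 4.58% and 4.72% of all tested genes.

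**Figure D2:**
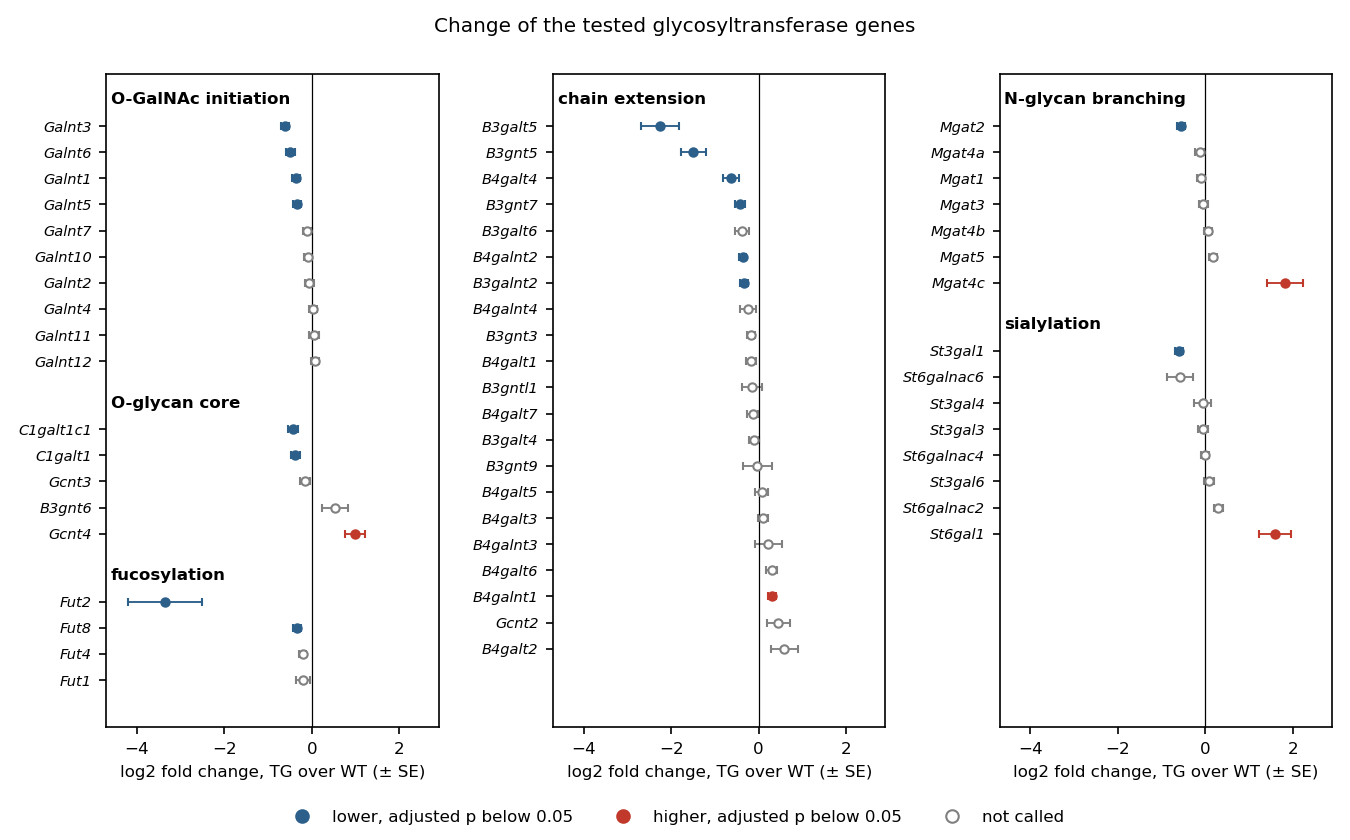
Log2 fold change, TG over WT, with its edgeR SE for each of the 55 tested members, by role (4 libraries a group). Blue points (16) were lower and red points (4) higher at an adjusted p below 0.05, and open points (35) were not called. Fut2 has the lowest value, -3.36, and Mgat4c the highest, 1.82.

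Among the fucosyltransferases, Fut2 had the largest decrease of all tested members. Fut2 (ENSMUSG00000055978, GRCm39 chromosome 7, 45298015 to 45315818, minus strand) adds fucose to terminal galactose, and in the intestine it makes the fucosylated surface glycans and secreted blood group chains that microbes bind and feed on. Replicates 1 to 4 of TG had 0.438, 0.352, 1.75 and 1.90 CPM, from 7, 5, 31 and 25 counts. In WT the values were 21.6, 15.7, 5.96 and 2.75 CPM, from 270, 226, 89 and 37 counts. The groups did not overlap, yet WT values spread widely and the WT library with the least Fut2 lay close to the TG libraries with the most. Fut2 fell by 3.36 on the log2 scale, with an SE of 0.85 (edgeR adjusted p = 0.0403). Since 2 TG and 4 WT libraries reached the filter level, Fut2 was tested with the help of the group where it was high, and its call is given as a description. The call was lost without any one of TG replicates 1 to 4, WT replicate 1 or WT replicate 2, with adjusted p of 0.0670 to 0.113 and log2 fold changes of -2.87 to -3.71. With all 8 libraries it was also lost under limma voom (adjusted p = 0.0933), with no low-count filter (edgeR adjusted p = 0.0660), with the replicate number as a block (0.160) and with the Y-linked split as a covariate (0.0594), and it was kept in 8 of 19 alternative settings. Fut1, its neighbour on chromosome 7 with the same acceptor, was at 24.5 ± 3.58 CPM in TG and 28.1 ± 6.75 in WT (SD, n = 4 per group), with a log2 fold change of -0.20 ± 0.16 (SE) and an edgeR adjusted p of 0.431. The sources used here do not say how reads that match both genes were counted.

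Fut2 was also the member whose change depended on the split by Y-linked counts. In libraries without such counts its log2 fold change was -5.52, and in those with them -1.27. The difference of 4.26 had an edgeR adjusted p of 0.0456 in an interaction test over all genes, which called 3 of 11929 genes (0.0251%). Another of the 3 was Socs3, of the microbe responsive list below (edgeR adjusted p = 0.0456). Its log2 fold change was -2.90 without and -1.32 with Y-linked counts. Replicates 3 and 4 had less Fut2 than replicates 1 and 2 in WT and more in TG. The interaction of Fut2 was not called with total counts (adjusted p = 0.242), nor without TG replicate 1 (0.280), 2 (0.510), 3 (0.204) or 4 (0.150), nor without WT replicate 4 (0.0679). Whatever else separates replicates 1 and 2 from 3 and 4 cannot be told apart from the Y-linked split.

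The other tested fucosyltransferases were more abundant per length, and their fold changes were smaller. Fut8, which adds the core fucose of N-glycans, was at 117, 133, 124 and 119.8 CPM in TG and 166, 171, 138 and 153 in WT. These ranges did not overlap, and the log2 fold change was -0.35 ± 0.09 (SE, edgeR adjusted p = 0.0174), which rose to 0.0694 without TG replicate 1. Fut4 was at 133, 136, 134 and 155 CPM in TG and 169, 162, 159 and 155 in WT, with a log2 fold change of -0.21 ± 0.08 (SE) that did not pass the test (edgeR adjusted p = 0.0963). TG replicate 4 alone reached the WT range of Fut4. Per length, Fut4 made up 61.3 ± 2.64% of the summed fucosyltransferase level in TG and 58.6 ± 3.82% in WT (SD, n = 4 per group), and Fut2 0.358 ± 0.265% and 2.92 ± 2.03%.

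The stretch of 250 bases before the start of the Ensembl canonical transcript is printed for the members with the largest decreases, Fut2, B3galt5 and B3gnt5. It is also printed for Mgat2, the one member called lower that matched the STAT motif named below. B4galt4, Galnt3 and St3gal1 fell more than Mgat2 and matched neither motif. Each motif was found in 1 of the 16 members called lower, so the printed windows do not stand for the genes that fell. Sequences were taken from the GRCm39 genome with the GENCODE M39 annotation and run 5′ to 3′ on the strand of the gene. Fut2 is at chr7:45315819-45316068, minus strand, B3galt5 at chr16:96081662-96081911, plus strand, B3gnt5 at chr16:19578698-19578947, plus strand, and Mgat2 at chr12:69230681-69230930, plus strand. The B3galt5 window lies inside the annotated gene, since other transcripts of it start further upstream. Capitals mark a match to one of the motifs named after the sequences.
Fut2: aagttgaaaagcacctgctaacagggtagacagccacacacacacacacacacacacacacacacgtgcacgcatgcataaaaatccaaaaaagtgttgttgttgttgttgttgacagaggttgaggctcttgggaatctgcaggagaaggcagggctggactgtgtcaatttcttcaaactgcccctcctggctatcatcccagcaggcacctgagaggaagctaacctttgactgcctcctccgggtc
B3galt5: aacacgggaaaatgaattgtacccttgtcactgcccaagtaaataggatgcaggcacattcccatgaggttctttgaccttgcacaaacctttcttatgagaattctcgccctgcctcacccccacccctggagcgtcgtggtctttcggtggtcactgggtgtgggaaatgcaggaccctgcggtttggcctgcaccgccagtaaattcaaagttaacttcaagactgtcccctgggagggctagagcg
B3gnt5: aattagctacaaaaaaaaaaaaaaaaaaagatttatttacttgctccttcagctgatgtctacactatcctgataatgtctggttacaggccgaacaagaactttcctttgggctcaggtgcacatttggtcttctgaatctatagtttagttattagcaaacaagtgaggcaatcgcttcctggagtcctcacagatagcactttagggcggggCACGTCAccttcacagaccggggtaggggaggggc
Mgat2: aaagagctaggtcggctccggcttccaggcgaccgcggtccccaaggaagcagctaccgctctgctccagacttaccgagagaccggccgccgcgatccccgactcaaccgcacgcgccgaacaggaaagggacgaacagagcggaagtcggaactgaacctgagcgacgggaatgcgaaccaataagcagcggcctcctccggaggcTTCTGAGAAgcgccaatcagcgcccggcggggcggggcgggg

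The 2 motifs searched on both strands of these windows were the STAT motif TTCNNNGAA and TGACGTG, the core of the unfolded protein response element bound by XBP1. Matches of the STAT motif were present in 5 of the 55 tested members (9.09%), in 7.70% of 21770 protein-coding promoters and in 6.55% of the 11294 promoters of tested protein-coding genes. The members were B4galnt1, B4galt1, Fut4, Galnt12 and Mgat2, of which Mgat2 alone was called lower, with its match 42 bases before the start. TGACGTG or its reverse complement was found in 1 of 55 members, B3gnt5, 35 bases before the start, against 1.52% of all protein-coding promoters and 1.98% of those tested. Neither motif was in the printed windows of Fut2 and B3galt5. A match describes these letters only, and no binding was measured.

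Galactosyl and GlcNAc transferases of chain extension held the other large decreases, B3galt5 and B3gnt5. B3galt5 (ENSMUSG00000074892, GRCm39 chromosome 16, 96036699 to 96121060, plus strand) makes type 1 chains by adding galactose to GlcNAc. TG libraries had 0.438, 0.633, 0.452 and 0.304 CPM and WT libraries 2.72, 1.60, 3.61 and 0.967. All TG libraries lay below all WT libraries, but each was also under the filter level of 0.691 CPM, so that B3galt5 entered the test through WT alone. The log2 fold change was -2.26 ± 0.43 (SE, edgeR adjusted p = 0.00360). B3gnt5 (ENSMUSG00000022686, GRCm39 chromosome 16, 19578948 to 19591507, plus strand) starts the lacto- and neolacto-series glycolipids by placing GlcNAc on lactosylceramide. It had 2.25, 0.985, 2.60 and 0.988 CPM in TG and 5.68, 5.15, 5.09 and 3.72 in WT, with no overlap. Its log2 fold change was -1.49 ± 0.30 (SE, edgeR adjusted p = 0.00467). The call of B3gnt5 held without any 1 library. That of B3galt5 is a description only, because a gene that passes the filter through one group had to differ.

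A further 4 members of this role fell, which makes 6 lower and 1 higher of 21 tested, against 9.65% and 8.26% of all tested genes. B4galnt2, which makes the Sda antigen and was the most abundant of the role per length, was at 128, 139.8, 124 and 129 CPM in TG and 184, 170.3, 158 and 159 in WT, a log2 fold change of -0.36 ± 0.09 (SE, edgeR adjusted p = 0.0104). B3gnt7, which extends sulfated lactosamine chains, went from 43.2 ± 5.83 CPM in WT to 32.1 ± 3.34 in TG (SD, n = 4 per group), a log2 fold change of -0.43 (edgeR adjusted p = 0.0157). The lactosamine galactosyltransferase B4galt4 had log2 fold change -0.63 (edgeR adjusted p = 0.0242) and B3galnt2, which acts on the O-mannose glycan of dystroglycan, -0.33 (edgeR adjusted p = 0.0265). Ranges did not overlap for any of these 4. Exons of B3galnt2 overlap those of Tbce on the other strand, and since the counting's strand setting is unknown, the 2 genes may share reads. B3gnt7 lost its call without TG replicate 1 (adjusted p = 0.0640). B4galt4 lost it without TG replicate 1, TG replicate 2 or WT replicate 1 (up to 0.0863), and B3galnt2 without TG replicate 1, 2 or 3 or WT replicate 4 (up to 0.0839).

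B4galnt1, the GM2 and GD2 ganglioside synthase, went the other way. It was at 159, 179.6, 154 and 189.8 CPM in TG and 153, 127, 131 and 141 in WT, so that the lowest TG library stood just above the highest WT library. Its log2 fold change of 0.31 ± 0.10 (SE) was the smallest of the 20 called members in size (edgeR adjusted p = 0.0397), and the call held in only 2 of 8 fits without 1 library, when TG replicate 3 or WT replicate 1 was left out, with adjusted p of up to 0.110 in the other 6. Per length, B4galnt1 made up 19.1 ± 1.40% of the summed chain extension level in TG and 13.7 ± 0.773% in WT (SD, n = 4 per group), and B4galnt2 27.7 ± 1.13% and 31.7 ± 0.875%. Of the 14 members of this role that were not called, B4galt1, the main lactosamine galactosyltransferase, was at 129.8 ± 13.8 CPM in TG and 147 ± 26.4 in WT (SD, n = 4 per group). B3galt6, which works on the glycosaminoglycan linker, and B4galt6, a lactosylceramide synthase, had unadjusted p of 0.0251 and 0.0296, log2 fold changes of -0.38 and 0.30, and adjusted p by edgeR of 0.0972 and 0.108. Gcnt2, the I-branching enzyme, had TG values of 1.58 to 1.76 CPM above WT values of 1.12 to 1.28 but was not called (edgeR adjusted p = 0.243). The other 10 tested members of the role, B3galt4, B3gnt3, B3gnt9, B3gntl1, B4galnt3, B4galnt4, B4galt2, B4galt3, B4galt5 and B4galt7, had log2 fold changes from -0.24 in B4galnt4 to 0.59 in B4galt2.

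**Figure D3:**
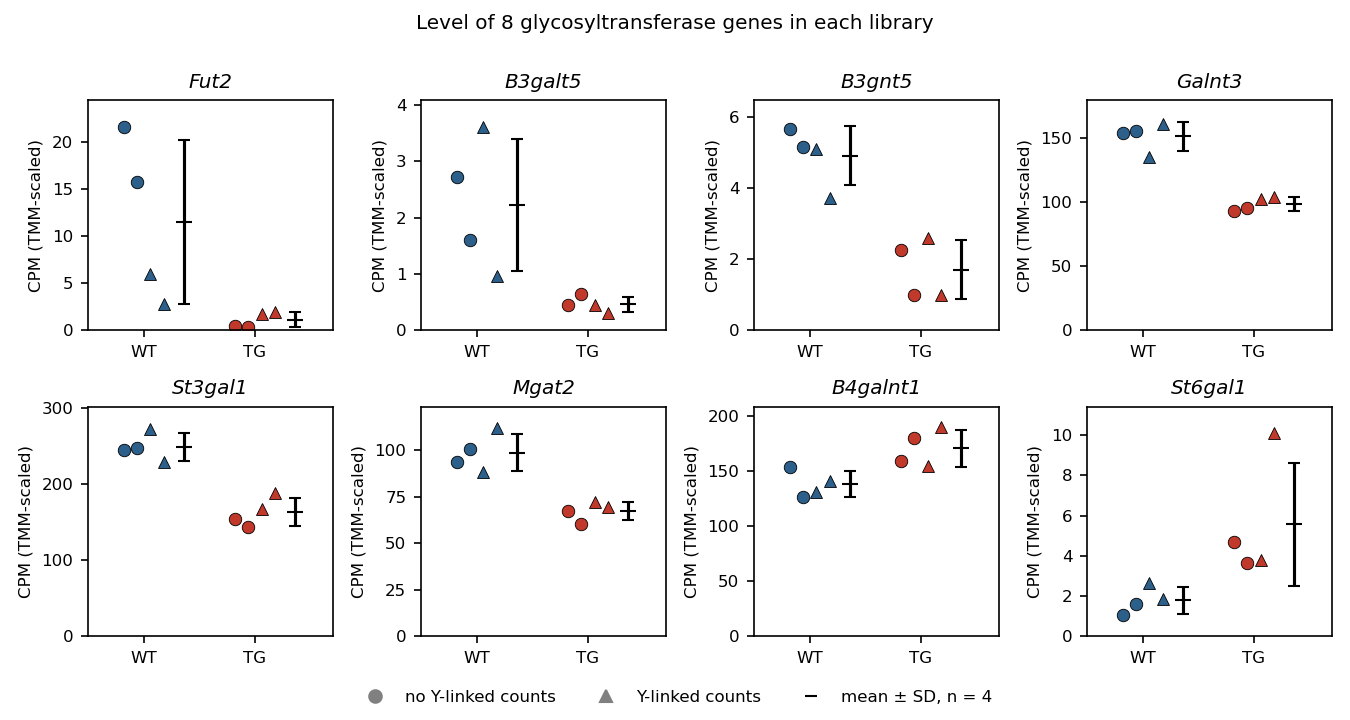
TMM-scaled CPM of 8 glycosyltransferase genes in each library of WT (blue) and TG (red), with the mean and SD of 4 libraries in black. Circles are libraries without and triangles libraries with Y-linked counts. TG lies below WT in Fut2, B3galt5, B3gnt5, Galnt3, St3gal1 and Mgat2 and above it in B4galnt1 and St6gal1, and the WT libraries of Fut2 range from 2.75 to 21.6 CPM.

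O-glycan initiation fell in part of the Galnt family. Of 10 tested members 4 were lower in TG and 6 were not called, against 9.65% lower over all tested genes. Galnt3 (ENSMUSG00000026994, GRCm39 chromosome 2, 65913110 to 65955482, minus strand) had the smallest adjusted p of all members. Its level was 92.9, 95.0, 102 and 104 CPM in TG and 154, 155, 135 and 161 in WT, and the gap between the groups was wider than the range within either. The log2 fold change was -0.62 ± 0.09 (SE, edgeR adjusted p = 0.000751). Galnt6 (ENSMUSG00000037280, GRCm39 chromosome 15, 100587797 to 100627258, minus strand), the most abundant of the 4 per length, had 191, 174, 211 and 224 CPM in TG and 259.8, 311, 262 and 296 in WT. Its log2 fold change was -0.50 ± 0.10 (SE, edgeR adjusted p = 0.00519). The ubiquitous Galnt1 went from 98.3 ± 7.24 to 76.5 ± 3.19 CPM and Galnt5 from 124 ± 10.6 to 98.7 ± 3.69 (WT to TG, SD, n = 4 per group), with log2 fold changes of -0.36 and -0.33, and adjusted p from edgeR of 0.00965 and 0.0165. All 4 had non-overlapping ranges, and Galnt5 alone lost its call in fits without 1 library, namely TG replicate 2 or WT replicate 4 (adjusted p up to 0.0593).

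The most abundant members of the initiation step did not pass the test. Galnt7 was at 321, 301, 304 and 341 CPM in TG and 326, 374, 314 and 355 in WT, with a log2 fold change of -0.11 ± 0.09 (SE, edgeR adjusted p = 0.414). Galnt12 and Galnt4 had log2 fold changes of 0.07 ± 0.08 (SE) and 0.03 ± 0.09 (SE), with edgeR adjusted p of 0.588 and 0.826. Galnt10, Galnt2 and Galnt11 had -0.10, -0.06 and 0.04, none called. Summed over the 10 tested genes, the level was 230.4 to 256 CPM per kb in TG and 255 to 286 in WT. Galnt3 made up 7.44 ± 0.418% of that sum in TG and 10.1 ± 0.334% in WT, Galnt6 12.1 ± 1.02% and 15.2 ± 0.766%, and Galnt12 21.8 ± 0.838% and 18.4 ± 1.40% (SD, n = 4 per group). Such shares show unequal change within the family and do not show that a member with a rising share changed.

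Both genes of core 1 synthesis were lower in TG. C1galt1 (ENSMUSG00000042460, GRCm39 chromosome 6, 7844634 to 7875687, plus strand) adds galactose to the first GalNAc, and C1galt1c1 (ENSMUSG00000048970, GRCm39 chromosome X, 37719034 to 37724025, minus strand), also called Cosmc, is its chaperone. C1galt1 was at 161, 128, 162 and 154 CPM in TG and 194, 207, 173 and 215 in WT, without overlap, and its log2 fold change was -0.38 ± 0.10 (SE, edgeR adjusted p = 0.0179). C1galt1c1 was at 122, 116, 119 and 134 CPM in TG and 189, 169.8, 130.0 and 173 in WT, and its log2 fold change was -0.43 ± 0.11 (SE, edgeR adjusted p = 0.0158). It was the only called member with overlapping ranges, since WT replicate 3 lay below TG replicate 4. C1galt1 lost its call without TG replicate 2 or WT replicate 4 (adjusted p up to 0.0643) and C1galt1c1 without TG replicate 1 or TG replicate 2 (up to 0.0551). Gcnt3, which branches core 1 and core 3, was at 167, 138, 153 and 179 CPM in TG and 212, 190.2, 156 and 153 in WT and was not called (log2 fold change -0.16 ± 0.12 (SE), edgeR adjusted p = 0.367).

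Gcnt4, another core 2 branching enzyme, rose from a low level. Gcnt4 (ENSMUSG00000091387, GRCm39 chromosome 13, 97061053 to 97087422, plus strand) had 3.44, 3.17, 3.44 and 3.27 CPM in TG and 1.12, 1.67, 1.81 and 2.08 in WT. The TG libraries were tightly grouped above WT, and the log2 fold change was 0.99 ± 0.24 (SE, edgeR adjusted p = 0.0115). Per length Gcnt4 still made up no more than 0.567 ± 0.0418% of the core enzymes in TG, against 37.0 ± 1.33% for Gcnt3 (SD, n = 4). The core 3 synthase B3gnt6 was at 3.15 ± 0.753 CPM in TG and 2.18 ± 0.882 in WT (SD, n = 4 per group) and was not called (edgeR adjusted p = 0.238).

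In N-glycan branching, Mgat2 fell while the other abundant Mgat genes did not pass the test. Mgat2 (ENSMUSG00000043998, GRCm39 chromosome 12, 69230931 to 69233544, plus strand) places the second GlcNAc antenna and so turns hybrid into complex N-glycans. Its level was 67.5, 60.3, 71.9 and 69.3 CPM in TG and 93.8, 100.3, 88.4 and 112 in WT, with no overlap, and its log2 fold change was -0.55 ± 0.09 (SE, edgeR adjusted p = 0.00195). Of the summed Mgat level per length, Mgat2 made up 25.8 ± 1.81% in TG and 34.0 ± 3.37% in WT, and Mgat4b, which adds a further antenna, 30.8 ± 0.871% and 26.4 ± 2.96% (SD, n = 4 per group). Mgat1, which acts before Mgat2, had a log2 fold change of -0.10 ± 0.09 (SE), and Mgat5, which makes the antenna used for long lactosamine chains, 0.18 ± 0.09 (SE, edgeR adjusted p = 0.455 and 0.161). Mgat3, the bisecting enzyme, Mgat4a and Mgat4b had log2 fold changes of -0.04, -0.13 and 0.07 and were not called. Mgat2 exons overlap Rpl36al on the other strand, and the 2 genes may share reads.

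Mgat4c, a low-level relative of Mgat4a, was higher in TG. It had 2.06, 1.20, 2.48 and 4.56 CPM in TG and 0.560, 0.487, 1.07 and 0.744 in WT. On total counts without TMM factors, the scale of the filter, 4 TG libraries and 1 WT library reached the filter level, so that Mgat4c was tested because of TG and its call is a description only. The groups did not overlap, and the log2 fold change was 1.82 ± 0.41 (SE, edgeR adjusted p = 0.00908).

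Among 8 tested sialyltransferases 1 fell and 1 rose, and counts this small are near the 9.65% lower and 8.26% higher of all tested genes. St3gal1 (ENSMUSG00000013846, GRCm39 chromosome 15, 66974724 to 67048690, minus strand), which caps the galactose of core 1, was at 154, 144, 167 and 188 CPM in TG and 244, 247, 273 and 229 in WT. All TG libraries lay well below all WT libraries, and the log2 fold change was -0.60 ± 0.10 (SE, edgeR adjusted p = 0.00166). St6gal1 (ENSMUSG00000022885, GRCm39 chromosome 16, 23043460 to 23179103, plus strand), which puts sialic acid on the lactosamine ends of N-glycans, had 4.69, 3.66, 3.78 and 10.1 CPM in TG and 1.04, 1.60, 2.68 and 1.86 in WT. TG replicate 4 stood well above the other TG libraries, and the lowest TG library was above the highest WT library. The log2 fold change was 1.60 ± 0.37 (SE, edgeR adjusted p = 0.0124), and 1.16 to 1.86 in fits without 1 library, all of them called. The TG libraries also had the higher enterocyte marker sums given above.

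St6galnac2, which adds sialic acid to the first GalNAc, missed the threshold at a log2 fold change of 0.30 ± 0.10 (SE, edgeR adjusted p = 0.0563). It was called higher in 6 of 19 alternative settings, namely DESeq2, limma voom, no low-count filter, the replicate block, the Y-linked covariate and without TG replicate 3 (adjusted p of 0.0228 to 0.0490). A second Ensembl ID with this symbol, ENSMUSG00000110170, lies within the same locus and had 5.80 ± 1.40 CPM in TG and 2.38 ± 1.59 in WT (SD, n = 4 per group). That ID was called (log2 fold change 1.27 ± 0.35 (SE), edgeR adjusted p = 0.0268) although its ranges overlapped, but the 2 IDs can share reads and both values are uncertain. St3gal4, St3gal3, St3gal6, St6galnac4 and St6galnac6 were not called, with log2 fold changes of -0.06, -0.05, 0.08, -0.01 and -0.59. St3gal1 made up 40.1 ± 2.14% of the summed sialyltransferase level per length in TG and 52.7 ± 2.59% in WT, and St6galnac2 29.7 ± 5.44% and 20.8 ± 1.64% (SD, n = 4 per group). Summed over the role, sialyltransferases were at 56.3 to 64.8 CPM per kb in TG and 65.8 to 70.3 in WT.

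The 34 members that were not tested were at or near 0. Over all 8 libraries, 18 of them had 0 counts, where 3 counts in a library correspond to 0.185 to 0.229 CPM on total counts, without TMM factors. Gcnt1, the core 2 enzyme of leukocytes and many epithelia, had 43 counts in all, the most of this set, and the lactosamine extender B3gnt2 had 33. St3gal2 had 15 counts, B3gnt8 and St3gal5 had 8 each, and B3galt9, Fut7, Galnt18 and St8sia6 had 4 each. With 3 counts or fewer came B3galt2, St8sia3, St6galnac3, B3gnt4, Galnt16, St8sia1 and St8sia5. B3galnt1, B3galt1, Fut9, Galnt9, Galnt13, Galnt14, Galnt15, Galnt17, Gcnt7, Mgat4d, Mgat4e, Mgat4f, Mgat5b, St6gal2, St6galnac1, St6galnac5, St8sia2 and St8sia4 were the ones with 0. The polysialic acid and disialic acid enzymes of the St8sia family thus had at most 4 counts each and were too low to test. St6galnac1, a goblet cell enzyme of mucin sialylation, had no count.

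The comparison was also made on each side of the split by Y-linked counts, with 2 libraries a group. Within the 4 libraries without Y-linked counts, edgeR called 13 of 55 members lower and 1 higher, against 5.29% and 4.15% of all tested genes. Within the 4 libraries with Y-linked counts, it called 0 lower and 0 higher (14 and 7 at an unadjusted p below 0.05), where 0.865% and 0.940% of all tested genes were called, so that these counts of 0 are at the background and say nothing about the members. St3gal4 had log2 fold changes of -0.56 without and 0.35 with Y-linked counts, and Gcnt3 -0.40 and 0.10, but neither difference passed the interaction test (edgeR adjusted p = 0.330 and 0.776).

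Genes that supply the transferases with sugar were described through lists of the pathway. Of 30 tested genes for precursor supply, 10 were lower and 1 was higher in TG, against 9.65% and 8.26% of all tested genes, with a median log2 fold change of -0.20. Cmas, which activates sialic acid, fell by 0.61 on the log2 scale, from 134 ± 6.19 to 87.5 ± 10.5 CPM (SD, n = 4 per group, edgeR adjusted p = 0.00139). Uap1, which makes UDP-GlcNAc, had a log2 fold change of -0.65, and Gmds, the first enzyme of GDP-fucose synthesis, -0.55 (edgeR adjusted p = 0.00265 and 0.00297). Gmppb, which makes GDP-mannose, had -0.48 (edgeR adjusted p = 0.00414). For each of these 4, all TG libraries lay below all WT libraries.

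Early N-glycan assembly, the steps in the endoplasmic reticulum before the Mgat enzymes, had 12 of 25 tested genes lower and 13 not called, with a median log2 fold change of -0.32. This count and those that follow stand against 9.65% lower and 8.26% higher over all tested genes, with a median of 0.01. Alg9, a mannosyltransferase, had a log2 fold change of -0.49 ± 0.10 (SE, edgeR adjusted p = 0.00490). Ostc, Ddost and Alg5 had -0.48, -0.48 and -0.37, with edgeR adjusted p of 0.00569, 0.0105 and 0.0114, and the first 2 of them belong to the oligosaccharyltransferase. N-glycan trimming had 1 of 13 lower, the glucosidase Mogs at -0.45, and 1 higher, the folding sensor Uggt2 at 0.98 (edgeR adjusted p = 0.00502 and 0.0160). Of 15 other glycosyl- and sulfotransferases A4gnt alone was called, at -0.51 (edgeR adjusted p = 0.0185), an enzyme that caps gastric-type O-glycans with GlcNAc. Among 15 tested glycosidases 2 were higher and 13 not called. Oga, which removes O-GlcNAc from proteins inside the cell, was one of those higher, at a log2 fold change of 0.39 (edgeR adjusted p = 0.0161). The counts for trimming, for other transferases and for glycosidases are thus of 1 or 2 genes and near the background or below it. Over the 6 lists and the microbe responsive list below, 33 of 112 tested genes were lower and 5 higher. With total counts 11 of them were lower, where 2.20% of all tested genes were, and 20 were lower without TG replicate 1, where 4.58% of all tested genes were. Without TG replicate 2, 1 of them was higher, where 4.01% of all tested genes were.

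The secreted mucin Muc2, a carrier of O-glycans, was at 2571, 2687, 2711 and 2953 CPM in TG and 2309, 4178, 2693 and 2917 in WT. The ranges overlapped, and its log2 fold change of -0.15 ± 0.16 (SE) did not pass the test (edgeR adjusted p = 0.558). Of 5 tested mucins, the membrane mucins Muc13 and Muc4 were lower, with log2 fold changes of -0.54 ± 0.11 (SE) and -0.79 ± 0.14 (SE, edgeR adjusted p = 0.00463 and 0.00316). Per length, Muc13 stood above Muc2, with means over all 8 libraries of 554 and 207 CPM per kb. Muc17, a membrane mucin of enterocytes, was higher at 0.56 ± 0.17 (SE, edgeR adjusted p = 0.0417), in the libraries with the higher enterocyte marker sums.

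Fut2 belongs to a set of epithelial genes that microbes and the cytokine IL-22 are known to induce. Of 9 other tested genes of this kind, 7 were lower in TG and 2 were not called, where 9.65% of all tested genes were lower. This list was chosen with those results known, so its count is a description. Stat3, which carries the IL-22 signal, was at 78.7, 67.1, 101 and 73.4 CPM in TG and 164, 142, 125 and 121 in WT, and its log2 fold change was -0.78 ± 0.13 (SE, edgeR adjusted p = 0.00205). Reg3g and Retnlb, secreted antimicrobial proteins, had log2 fold changes of -2.75 and -3.93 (edgeR adjusted p = 0.00347 and 0.00384). Nos2, which makes nitric oxide, had -0.95 (edgeR adjusted p = 0.0105). Il22ra1, the epithelial chain of the IL-22 receptor, was at 55.9 ± 4.09 CPM in TG and 47.8 ± 7.64 in WT (SD, n = 4 per group) and was not called (edgeR adjusted p = 0.167). The part of IL-22 in the level of Fut2 was not tested.

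**Figure D4:**
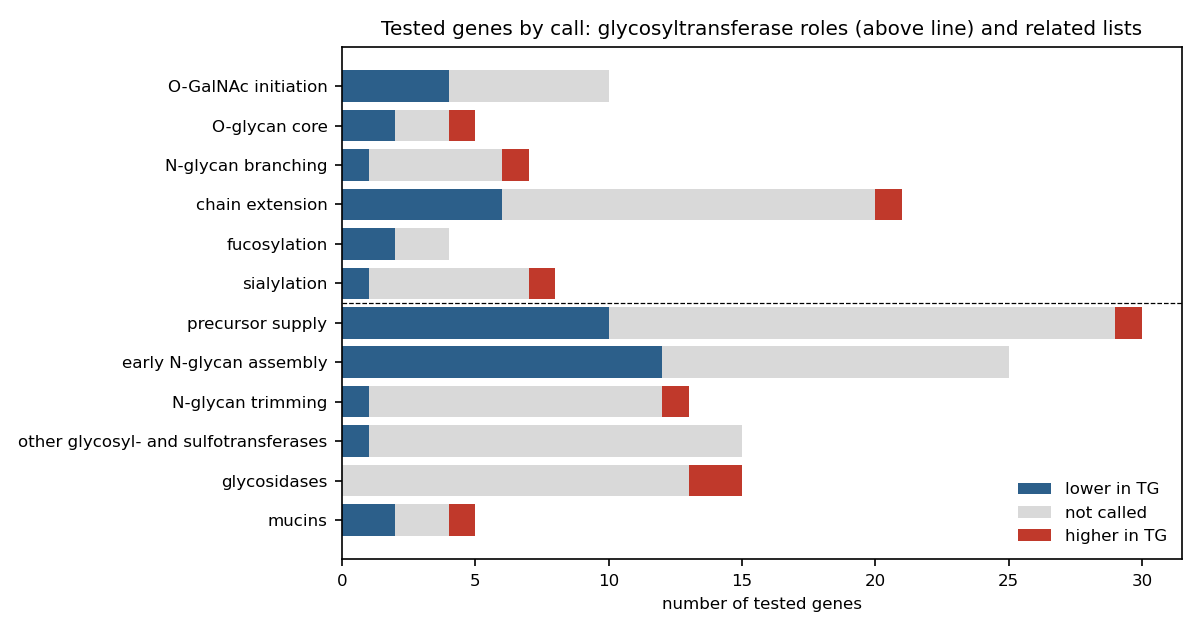
Number of tested genes (x axis) that were lower (blue), higher (red) or not called (grey) in TG at an edgeR adjusted p below 0.05, for the 6 roles of the glycosyltransferase genes above the dashed line and 6 related lists below it. Lower genes outnumber higher ones most in early N-glycan assembly (12 lower of 25) and precursor supply (10 lower and 1 higher of 30), and glycosidases are the one list with higher genes only (2 of 15).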

How the data were processed

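The authors deposited whole-number counts per Ensembl gene ID for each of 8 libraries (4 TG, 4 WT). The submitters' processing notes name FastQC 0.12.0, STAR 2.7.0a, DESeq2 and the mm39 build. The counting tool, its strand setting, its handling of reads that align more than once and its annotation were not given in the sources used here. Groups and replicate numbers came from the labels.

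Gene symbols, exon lengths and canonical transcript starts came from GENCODE M39 on GRCm39, which matched 54749 of 55414 IDs. A symbol shared by several IDs was given to the one with more counts. Fut10 and Fut11 carry other symbols in M39 and were not matched by the symbols used. Counts were tested with edgeR 4.0.16 in R 4.3.3 (robust quasi-likelihood, TMM factors, filterByExpr by group) over all 11929 genes, with the group as the only term, and p-values were adjusted by Benjamini-Hochberg over all of them at 0.05. SEs were derived as log2 fold change over the square root of F. CPM values are TMM-scaled. Marker sums were compared with exact permutation tests over 70 assignments (NumPy 2.4.6). These steps were first tested on simulated data with known changes. No pair of libraries in a group differed by as little as sampling noise, so all 8 were counted.

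Members, role groups and gene lists were chosen with earlier results of these data known. Named were all called members, the 10 with the highest level per kb, the 5 uncalled with the smallest p, the highest of each role, the untested members and, from each related list, at most 4 called genes by p and 2 partners. Other members are named to account for each role, and Socs3 for its interaction. Alg10b and Muc3 of the lists were not matched. One called gene of the related lists is counted but not reported here by name. Alternatives were DESeq2 1.42.0, limma 3.58.1 voom, RLE factors, total counts, library sizes without alpha-defensin genes, no filter, 1 CPM in 4 libraries, a replicate block, a Y-linked covariate, the libraries with or without Y-linked counts alone, and each library left out. Those for the interaction and the marker sums were chosen after seeing the data.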

Additional observations from a re-analysis of the deposited data

Results flagged for a closer look

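The 3 results below stood apart by fixed criteria. TG replicate 4 had 154.9 CPM of Fut4, where the other TG libraries had 133 to 136, a gap of 0.842 of the range of the group. The same library had 10.1 CPM of St6gal1, where the others had 3.66 to 4.69, a gap of 0.840 of the range. Of 60 groups of 4 libraries examined for such a gap, these 2 passed Dixon's critical value, and chance alone gives about 1 in 20, or 3 of 60. The change of Fut2 in libraries with Y-linked counts differed from that in the others by 4.26 on the log2 scale (edgeR interaction test, adjusted p = 0.0456), and this call was lost in the settings named with the result above.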

How the results depend on the processing

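With all 8 libraries, 15 or 16 members were lower and 4 or 5 higher under DESeq2, voom, RLE factors, library sizes without alpha-defensin genes, no filter, 1 CPM in 4 libraries and the Y-linked covariate, where 6.28% (no filter, 71 members tested) to 11.1% (voom) of all genes were lower and 6.19% to 9.96% higher. With total counts 6 members were lower (4 of 10 calls higher, against 4 of 20), and 11 genes of the related lists were lower, against 33. In that setting 2.20% of all tested genes were lower. The interaction then gave 0 members (2 at an unadjusted edgeR p below 0.05), against 1. With no filter the interaction gave 2. In the libraries with Y-linked counts alone 0 members were lower and 0 higher, where 0.865% and 0.940% of all tested genes were. In the same fit 4 related genes were lower and 0 higher (6 higher at an unadjusted edgeR p below 0.05). In the libraries without Y-linked counts 1 member and 1 related gene were higher, where 4.15% of all tested genes were. Without 1 library, 10 to 16 members were lower and 3 to 5 higher. The count was 10 without TG replicate 1 or TG replicate 2, where 4.58% and 4.72% of all tested genes were lower. Over these fits 4.01% to 8.62% of all tested genes were higher, so that the background moved as well. Of the related genes 20 to 33 were lower (20 without TG replicate 1). Those higher numbered 1 to 5 (1 without TG replicate 2, 2 without TG replicate 4, 3 without TG replicate 1 or WT replicate 4). The interaction test was passed by 0 to 1 members. In all 8 of these fits 8 lower members (B3galt5, B3gnt5, B4galnt2, Galnt1, Galnt3, Galnt6, Mgat2 and St3gal1) and 3 higher members (Gcnt4, Mgat4c and St6gal1) kept their calls, of which B3galt5 and Mgat4c, like Fut2 among the other called members, rested on the group where they are high to pass the low-count filter, so that their calls are a description. No called member changed direction in any of 379 alternative values, of which 310 kept the call. Among members not called, Galnt4 turned to -0.0013 without Y-linked counts and to -0.036 without WT replicate 3 (-0.036 to 0.066 over fits without 1 library), and Gcnt3 to 0.11 with Y-linked counts. The causes of these shifts were not tested.

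The replicate numbers were not treated as pairs in the main fit. Correlations of deviations between TG and WT libraries of the same number were 0.076, 0.067, 0.286 and 0.231. Between libraries of different numbers they were -0.188 to 0.235. The same number gave the highest value for TG replicates 3 and 4 but not for 1 and 2. Whether the numbers pair the samples cannot be told from these values. With a replicate block 15 members were lower and 5 higher, against 9.76% and 8.71% of all tested genes, and Fut2 was not called (adjusted p = 0.160). Depth limited members of a few CPM: Fut2 in TG rested on 5 to 31 counts a library.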

Other observations

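Summed over each role per length, all 4 TG libraries lay below all 4 WT libraries in 4 of 6 roles. N-glycan branching genes summed to 97.6 to 101 CPM per kb in TG and 105 to 116 in WT. Chain extension genes summed to 111 to 117 in TG and 122 to 142 in WT, and fucosyltransferases to 53.3 to 58.6 and 61.3 to 73.8. Sialyltransferases behaved likewise, with the values given with St3gal1. The sums of core enzymes, 90.3 to 109 in TG and 103 to 141 in WT, overlapped, as did those of O-GalNAc initiation. These sums rest on the scaling of the libraries and on few abundant genes (B4galnt2 and B4galnt1 in chain extension, Fut4 in fucosylation), and no test was made of them.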
